A study of Mus musculus with 5 samples.

Results

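The keratin gene family was followed in the esophagus of transgenic mice with and without induction of interleukin-13 (IL-13). Its members were chosen by name alone, as every gene whose symbol in the array annotation is Krt followed by a number and at most 1 letter. That rule found 48 keratin genes among 18193 genes with a probe set of a single gene symbol, and these 48 genes have 61 probe sets. They comprise 25 type I and 23 type II keratins. A further 6 keratins of the RefSeq gene table (Krt9, Krt39, Krt40, Krt74, Krt87 and Krt90) have no probe set of their own symbol and were not analysed here.

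Total RNA of the esophagus was read on Affymetrix Mouse Genome 430 2.0 arrays, 1 array per sample. The Dox group (n = 3 arrays) came from CC10-IL-13 transgenic mice of FVB/N background, aged 3 to 4 months, on a diet with doxycycline. The NO Dox group (n = 2 arrays) came from mice of the same transgenic line, background and age on a regular diet. Both groups carry CC10-rtta and teton-IL-13, a transactivator driven by the CC10 promoter of airway club cells and an IL-13 transgene that answers to it when doxycycline is present. No doxycycline-fed mice without the transgenes were analysed here, and the effect of the diet and that of induced IL-13 cannot be told apart. Whether the arrays of a group came from separate animals is not stated in the labels. The p-values therefore cover only the spread among these arrays, which may be technical.

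Each value is a ratio of an array's signal to the mean of the 2 NO Dox arrays, so the 2 NO Dox ratios of a probe set average 1 and mirror each other. A ratio is not a level, and levels of different genes were not compared. A gene was called higher or lower when the adjusted p of limma was under 0.05 (it passed), with Benjamini-Hochberg adjustment over all 18193 genes. Log2 fold changes are Dox minus NO Dox. The median ratio over all probe sets was between 0.926 and 0.955 in the Dox arrays and between 0.999 and 1.001 in the NO Dox arrays, and the median log2 fold change over all genes was -0.10. With 3 and 2 arrays, the smallest p that an exact permutation test allows is 0.1, and no gene was tested that way alone.

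Keratins build the intermediate filaments of epithelial cells, and each filament pairs a type I with a type II keratin. Stratified epithelia such as that of the esophagus hold Krt5 and Krt14 in the dividing basal layer, and Krt4 and Krt13 in the layers above it. Krt6a, Krt6b, Krt16 and Krt17 are known as the stress keratins, because skin and oral epithelium make them after wounding and in hyperproliferation. Krt8, Krt18, Krt7, Krt19 and Krt20 belong to simple and glandular epithelia, and a large remaining group builds hair shafts and the sheaths of the hair follicle.

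Of the 48 keratin genes, 3 rose in Dox and 3 fell, against 1.38% (251) higher and 1.37% (250) lower among all 18193 genes. The 3 that rose, Krt6a, Krt6b and Krt16, are stress keratins. The 3 that fell, Krt76, Krt79 and Krt32, came from the suprabasal, other and hair groups. In 8 keratins all 3 Dox arrays lay above both NO Dox arrays, in 12 they lay below both, and in 28 the groups overlapped. Over all genes the corresponding shares were 12.6% above and 23.3% below. The median log2 fold change of the 48 keratins was -0.17, beside -0.10 over all genes. In tissue samples, a change in the number of cells of a type and a change in RNA per cell cannot be told apart.

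These 6 calls rest on an estimate of spread that varies with signal level, a level recovered from the ratios. Without that trend, where each gene's spread is moderated toward the same prior value whatever its level, no keratin passed, and 4 genes of the whole array rose and 0 fell, with 2424 genes at an unadjusted p under 0.05. The smallest adjusted p of a keratin was then 0.0551, for Krt6b, and 6 keratins were higher and 6 lower at an unadjusted p under 0.05. The recovered level was only a lower bound for 13 keratins, Krt6a, Krt6b and Krt32 among them.

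**Figure D1:**
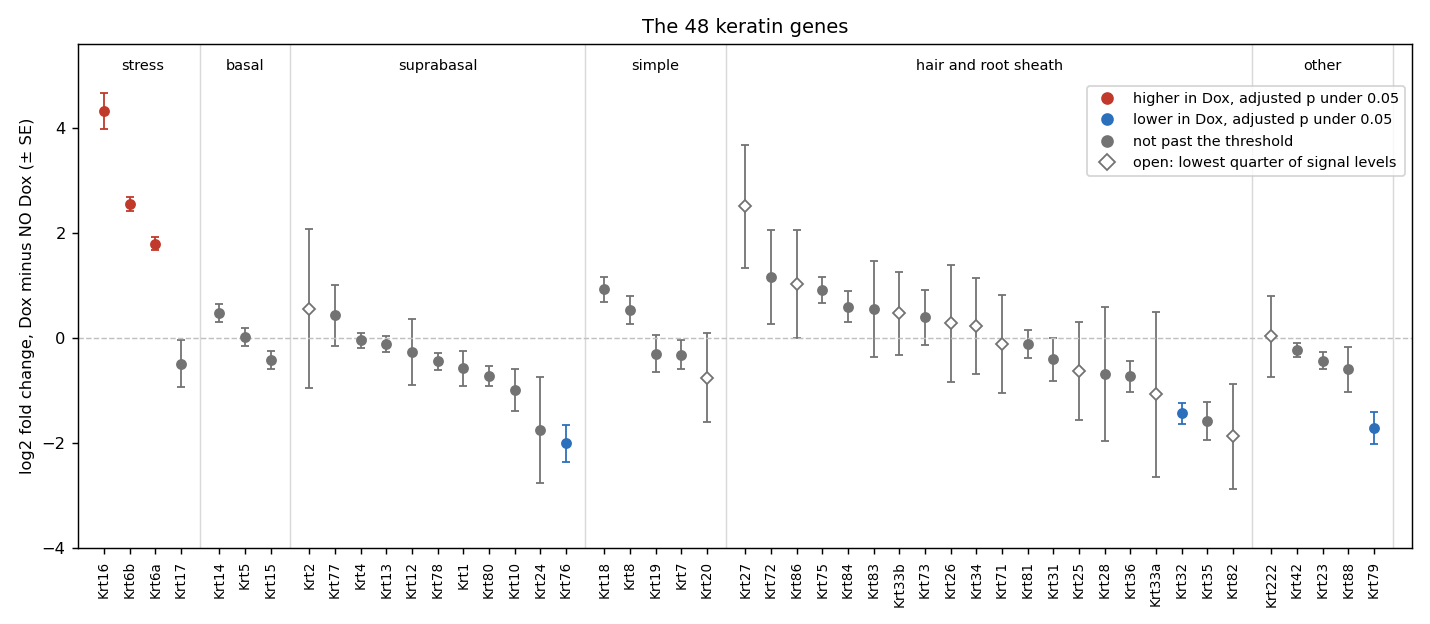
Log2 fold change (Dox minus NO Dox, 3 against 2 arrays) of each of the 48 keratin genes with its standard error, by group and ordered within a group. Red marks the 3 genes higher in Dox, blue the 3 lower, and open diamonds the 12 genes in the lowest 25% of signal levels. Krt16, Krt6b and Krt6a stand at the top, and Krt76, Krt79 and Krt32 are the 3 blue points.

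Promoters were read for the changed keratins that the RefSeq promoter table (GRCm38.p6) holds, which are the 3 that fell. They belong to different groups and can be set side by side by sequence. Krt6a, Krt6b and Krt16, which rose, and Krt17 have no promoter listed there. The motif counts below therefore do not cover them. Krt32 lies on chromosome 11, and Krt76 and Krt79 on chromosome 15. The 250 bases before each gene start are given below, 5′ to 3′ on the gene's own minus strand, with TATAAA in capitals.
Krt32, chr11:100088270-100088519, minus strand: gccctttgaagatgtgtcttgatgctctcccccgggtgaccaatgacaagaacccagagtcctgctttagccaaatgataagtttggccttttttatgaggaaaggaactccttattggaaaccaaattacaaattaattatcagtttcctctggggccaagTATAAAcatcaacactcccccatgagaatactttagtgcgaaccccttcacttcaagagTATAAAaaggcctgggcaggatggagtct
Krt76, chr15:101892921-101893170, minus strand: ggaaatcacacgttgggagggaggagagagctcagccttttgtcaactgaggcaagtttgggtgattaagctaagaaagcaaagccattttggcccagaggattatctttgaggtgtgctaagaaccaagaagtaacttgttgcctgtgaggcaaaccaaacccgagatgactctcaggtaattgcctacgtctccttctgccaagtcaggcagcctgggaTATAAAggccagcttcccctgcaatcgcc
Krt79, chr15:101940325-101940574, minus strand: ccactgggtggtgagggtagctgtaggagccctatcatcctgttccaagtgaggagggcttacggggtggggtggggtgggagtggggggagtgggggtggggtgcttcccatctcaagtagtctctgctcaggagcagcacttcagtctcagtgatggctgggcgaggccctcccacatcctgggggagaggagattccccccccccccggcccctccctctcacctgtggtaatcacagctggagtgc
Krt32 and Krt76 each carry TATAAA with its first base 29 bases before the gene start, and Krt32 has another 88 bases before it. No TATAAA was present in the Krt79 window. In windows of 300 bases, 250 before and 50 after the start, TATAAA on either strand was present in 18 of the 33 promoters listed for 32 keratin genes (54.5%) and in 4473 of all 32851 promoters (13.6%). The AP-1 motif TGANTCA, where N is any base, was present on either strand in 2 of the 33 keratin promoters, both of Krt13, and in 7.81% of all promoters. The STAT6 motif, TTC and GAA with 4 bases between them, was present in 3 of them, those of Krt25, Krt71 and Krt73, and in 6.95% of all promoters. A match of letters is a description of sequence and is not a binding site.

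Of the 4 stress keratins 3 rose, 0 fell and 1 did not pass, with a median log2 fold change of 2.17. Krt16, a type I keratin, had ratios of 32.5, 11.8 and 20.3 in the Dox arrays, against 0.847 and 1.15 in the NO Dox arrays. All Dox arrays lay far above both NO Dox arrays, and they differed among themselves, with Dox 2 lowest. The log2 fold change was 4.33 ± 0.35 (SE), a 20.1-fold difference (adjusted p = 0.000318, limma).

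Krt6b, a type II keratin, had ratios of 5.83, 6.04 and 5.65 in the Dox arrays, against 0.906 and 1.09 in the NO Dox arrays. The Dox arrays lay close together and well above the NO Dox arrays. The log2 fold change was 2.55 ± 0.14 (SE), a 5.86-fold difference (adjusted p = 2.91e-05, limma). Krt6a, its close relative, had ratios of 3.53, 3.48 and 3.41 in the Dox arrays, against 0.954 and 1.05 in the NO Dox arrays. Again the groups were apart and the Dox arrays lay close together (SD 0.0585), with a log2 fold change of 1.80 ± 0.13 (SE; adjusted p = 0.000143, limma). Krt6a and Krt6b are near-identical in sequence, and how far their probe sets share transcripts was not tested.

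Krt17, the remaining stress keratin and a type I partner of the Krt6 proteins, had ratios of 0.832, 1.27 and 0.343 in the Dox arrays, against 1.04 and 0.963 in the NO Dox arrays. Dox 2 was the highest of the 5 arrays and Dox 3 the lowest, so the groups overlapped. The log2 fold change was -0.49 ± 0.44 (SE; adjusted p = 0.630, limma), with a 95% interval of -1.48 to 0.51. A second Krt17 probe set, of low signal, gave a log2 fold change of -0.54. The array has 1 more probe set that is shared by Krt14 and Krt17 and was not used.

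**Figure D2:**
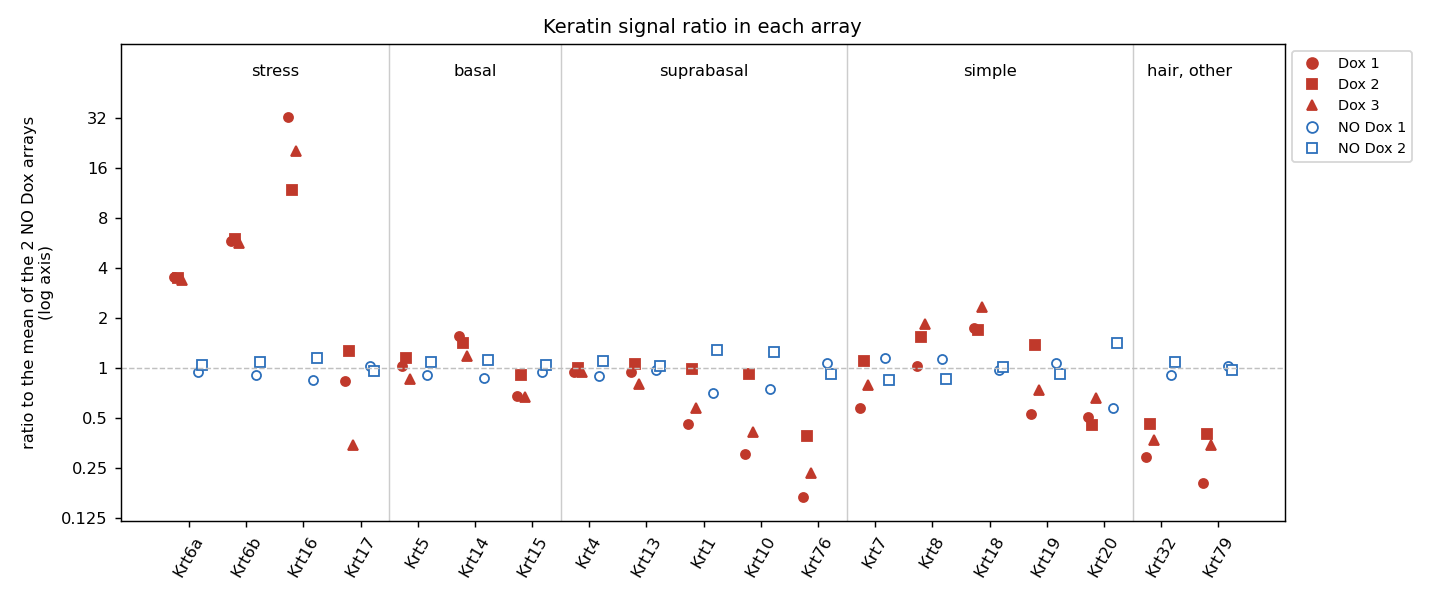
Signal ratio to the mean of the 2 NO Dox arrays, on a log axis, for 19 keratins in each array, with Dox arrays as filled red symbols left of the open blue NO Dox arrays. Krt6a, Krt6b and Krt16 lie above 3 in every Dox array, while Krt76, Krt32 and Krt79 lie below 0.5 there.

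Of the 3 basal keratins none passed, with a median log2 fold change of 0.02. Krt5, the type II keratin of basal cells, had ratios of 1.03, 1.16 and 0.866 in the Dox arrays, against 0.913 and 1.09 in the NO Dox arrays. The groups overlapped, with a log2 fold change of 0.02 and a 95% interval of -0.35 to 0.39 (adjusted p = 0.966, limma). Krt14, its type I partner, had ratios of 1.57, 1.42 and 1.19 in the Dox arrays, against 0.877 and 1.12 in the NO Dox arrays. All Dox arrays were above both NO Dox arrays, Dox 3 by a narrow margin, and the log2 fold change of 0.48 ± 0.17 (SE) did not pass (adjusted p = 0.185, limma). The Krt14 probe set used is of a kind that can share sequence with other genes. Another had ratios of 1.29, 1.13 and 1.09 in the Dox arrays, against 0.896 and 1.10 in the NO Dox arrays. Its groups overlapped, while a further Krt14 probe set had all Dox arrays above both NO Dox arrays. Krt15, a type I keratin of basal cells, had ratios of 0.684, 0.915 and 0.673 in the Dox arrays, against 0.952 and 1.05 in the NO Dox arrays. All Dox arrays were below both NO Dox arrays, with Dox 2 close to NO Dox 1, and the log2 fold change of -0.41 ± 0.17 (SE) did not pass (adjusted p = 0.237, limma).

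Of 11 suprabasal keratins, which are made once cells leave the basal layer, 1 fell, 0 rose and 10 did not pass. The median log2 fold change of the 11 was -0.45, and 9 of the 11 values were negative. The group was drawn up from known sites of expression and holds keratins of the esophagus (Krt4, Krt13), of the epidermis (Krt1, Krt10, Krt2, Krt77), of the cornea (Krt12) and of other stratified epithelia (Krt24, Krt76, Krt78, Krt80).

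The main pair of the upper esophageal layers did not pass. Krt4 had ratios of 0.944, 1.01 and 0.947 in the Dox arrays, against 0.901 and 1.10 in the NO Dox arrays. All Dox arrays lay between the NO Dox arrays, and the log2 fold change was -0.04, with a 95% interval of -0.36 to 0.27 (adjusted p = 0.911, limma). Its type I partner Krt13 had ratios of 0.946, 1.06 and 0.798 in the Dox arrays, against 0.975 and 1.02 in the NO Dox arrays. The groups overlapped here too, with a log2 fold change of -0.10 and a 95% interval of -0.45 to 0.24 (adjusted p = 0.780, limma). For both genes no signal level was recovered, and a lower bound stood in its place.

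Krt76 was the suprabasal keratin that fell. It is a type II keratin known from the palate and gums, read here by a probe set of a kind that can share sequence with other genes. The probe sets that stand for Krt12, Krt13, Krt14, Krt42 and Krt82 are also of such kinds. The Krt76 ratios were 0.168, 0.390 and 0.234 in the Dox arrays, against 1.08 and 0.919 in the NO Dox arrays. Every Dox array lay far below both NO Dox arrays, with Dox 2 the highest of the 3. The log2 fold change was -2.01 ± 0.35 (SE), a 4.02-fold lower value in Dox (adjusted p = 0.0184, limma). Without Dox 3, NO Dox 1 or NO Dox 2 it no longer passed, with adjusted p = 0.0727, 0.245 and 0.172 in limma.

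The epidermal pair had wide spread. Krt1 had ratios of 0.460, 0.991 and 0.578 in the Dox arrays, against 0.709 and 1.29 in the NO Dox arrays. Krt10 had ratios of 0.305, 0.921 and 0.415 in the Dox arrays, against 0.752 and 1.25 in the NO Dox arrays. In both genes Dox 1 and Dox 3 lay below both NO Dox arrays and Dox 2 lay between them. The log2 fold changes were -0.58 for Krt1 (adjusted p = 0.415, limma) and -0.99 for Krt10 (adjusted p = 0.247, limma). Without Dox 2 the Krt10 value was -1.44, past the threshold (adjusted p = 0.0128, limma).

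The rest of the suprabasal group did not pass. Krt80 had ratios of 0.506, 0.787 and 0.562 in the Dox arrays, against 0.947 and 1.05 in the NO Dox arrays, all Dox arrays being lower, with a log2 fold change of -0.72 ± 0.19 (SE; adjusted p = 0.0893, limma). Krt78 also had all Dox arrays below both NO Dox arrays, with a log2 fold change of -0.45. Krt24 was at 0.0775, 1.14 and 0.296 in the Dox arrays, against 0.967 and 1.03 in the NO Dox arrays, so that Dox 2 alone stood above the NO Dox arrays. Krt2, Krt12 and Krt77 overlapped between groups, and Krt2 was in the lowest 25% of signal levels.

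The keratins of simple epithelia passed no test, 0 of 5 in either direction. Krt18, the type I keratin of simple epithelia, had ratios of 1.75, 1.70 and 2.32 in the Dox arrays, against 0.976 and 1.02 in the NO Dox arrays. Every Dox array was clearly above the NO Dox arrays, and the log2 fold change of 0.93 ± 0.24 (SE) did not pass (adjusted p = 0.0792, limma). Krt8, its type II partner, had ratios of 1.03, 1.55 and 1.85 in the Dox arrays, against 1.14 and 0.859 in the NO Dox arrays. Dox 1 lay between the NO Dox arrays, and the log2 fold change was 0.53 ± 0.27 (SE; adjusted p = 0.354, limma).

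Krt7, a type II keratin of ducts and glands, had ratios of 0.575, 1.11 and 0.791 in the Dox arrays, against 1.15 and 0.847 in the NO Dox arrays. Krt19, a small type I keratin of ducts and some basal cells, had ratios of 0.526, 1.38 and 0.743 in the Dox arrays, against 1.07 and 0.929 in the NO Dox arrays. In both genes Dox 1 and Dox 3 were the lowest of the 5 arrays, while Dox 2 reached or passed the NO Dox range. Their log2 fold changes were -0.31 (adjusted p = 0.605, limma) and -0.29 (adjusted p = 0.718, limma). Krt20, a type I keratin of the gut lining and of urothelium, was in the lowest 25% of signal levels and had ratios of 0.506, 0.457 and 0.664 in the Dox arrays, against 0.572 and 1.43 in the NO Dox arrays. Its groups overlapped, with a log2 fold change of -0.76 and a 95% interval of -2.66 to 1.15 (adjusted p = 0.702, limma).

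Lung and airway markers were set beside the keratins of simple epithelia. Of 10 such markers 5 rose, 1 fell and 8 had all Dox arrays above both NO Dox arrays, beside 12.6% of all genes. Their median ratio was 4.06, 2.58 and 5.28 in the Dox arrays, against 1.04 and 0.955 in the NO Dox arrays. The 5 that rose were the surfactant genes Sftpa1, Sftpc and Sftpd, the alveolar receptor gene Ager and the protease gene Napsa, with log2 fold changes between 2.18 and 2.99, and the airway gene Tppp3 fell by 0.85 on the log2 scale. Without NO Dox 1 or without NO Dox 2, 0 of the 10 rose, and the call of Tppp3 was also lost under both of those, without Dox 1 or Dox 3, and with either scaling alternative or offset. The Tppp3 call was lost with the mean of the probe sets of a gene as well. With no trend of spread on level, or with a trend on the mean log2 ratio, none of the 10 passed. No member of this list was in the lowest 25% of signal levels. Alveolar and airway epithelium also express Krt8, Krt18, Krt7 and Krt19. None of these passed, and their log2 fold changes were positive for Krt8 and Krt18 and negative for Krt7 and Krt19. Of 16 markers of glandular and simple epithelium that are not keratins, 1 rose (Agr2, log2 fold change 2.24) and 0 fell, Muc1 having the next smallest p (log2 fold change 1.20, not passed), with median ratios of 0.877, 1.57 and 1.04 in the Dox arrays, against 1.03 and 0.973 in the NO Dox arrays. Agr2 was in the lowest 25% of signal levels and did not pass when any 1 of the 5 arrays was left out. The part of either list in the keratin values was not tested.

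Among 20 keratins of hair and root sheath, 1 fell, 0 rose and 19 did not pass, and 9 of the 20 were in the lowest 25% of signal levels. Krt32, a type I hair keratin, had ratios of 0.291, 0.463 and 0.370 in the Dox arrays, against 0.909 and 1.09 in the NO Dox arrays. All Dox ratios lay below both NO Dox ratios. The log2 fold change was -1.43 ± 0.20 (SE), a 2.70-fold lower value in Dox (adjusted p = 0.00736, limma). Without NO Dox 1 or NO Dox 2 it no longer passed, with adjusted p = 0.0878 and 0.137 in limma.

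Krt35, also a type I hair keratin, had ratios of 0.293, 0.401 and 0.303 in the Dox arrays, against 1.18 and 0.824 in the NO Dox arrays. The groups did not overlap, the NO Dox arrays differed more than for Krt32, and the log2 fold change of -1.58 ± 0.37 (SE) did not pass (adjusted p = 0.0617, limma). Krt75, a type II keratin of the companion layer of the hair follicle, had ratios of 1.53, 2.67 and 1.64 in the Dox arrays, against 1.06 and 0.944 in the NO Dox arrays. All Dox arrays were higher, and the log2 fold change of 0.92 ± 0.24 (SE) did not pass (adjusted p = 0.0892, limma). Krt36, Krt31 and Krt82 had all Dox arrays below both NO Dox arrays, and Krt27 and Krt84 had all above. None of these passed, and Krt27 and Krt82 were in the lowest 25% of signal levels. Of 7 hair follicle markers that are not keratins, 0 rose and 0 fell, and 5 were in the lowest 25%. The 2 of smallest p were Msx2 and Krtap3-1, with log2 fold changes of -1.41 and 1.39. The other 12 keratins of hair and root sheath, Krt25, Krt26, Krt28, Krt33a, Krt33b, Krt34, Krt71, Krt72, Krt73, Krt81, Krt83 and Krt86, overlapped between groups.

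Krt79, a type II keratin of the hair canal and sebaceous duct, was the third keratin that fell. Its ratios were 0.204, 0.399 and 0.346 in the Dox arrays, against 1.03 and 0.973 in the NO Dox arrays. Each Dox array was well below the NO Dox arrays, and Dox 2 was again the highest of them. The log2 fold change was -1.72 ± 0.30 (SE), a 3.29-fold lower value in Dox (adjusted p = 0.0203, limma). Without Dox 3, NO Dox 1 or NO Dox 2 it no longer passed, with adjusted p = 0.0583, 0.243 and 0.202 in limma. The other 4 keratins of this mixed group, Krt23, Krt42, Krt88 and Krt222, did not pass, with log2 fold changes from -0.60 to 0.03, and Krt23 and Krt42 had all Dox arrays below both NO Dox arrays.

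Dox 2 stood apart from the other Dox arrays across the family. It had the highest Dox ratio in 34 of the 48 keratins (70.8%), against 34.2% of all 18193 genes. Dox 1 was highest in 6 keratins and Dox 3 in 8. Krt16, Krt18, Krt20, Krt83 and Krt222 ran the other way, with their lowest Dox ratio in Dox 2. Without Dox 2, 8 keratins fell and 3 rose, where all 5 arrays gave 3 and 3. The 5 additional keratins were Krt10, Krt15, Krt23, Krt35 and Krt80. The 27 measured regulators of keratin transcription had a median ratio of 1.09 in Dox 2, against 0.852 in Dox 1 and 0.930 in Dox 3. Dox 2 also had the highest Dox median for markers of stratified epithelium, glandular epithelium, thyroid and hair follicle. The same held for genes of the cell cycle and of filament bundling and envelope. It did not hold for genes that anchor keratins or build other intermediate filaments, or for markers of skeletal muscle, lung and leukocytes. The part of any tissue difference in the Dox 2 values was not tested.

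Keratin partners were compared within each array. The log2 quotient of type II over type I ratio was taken as a description with no test. For Krt6a over Krt16 it was -3.20, -1.76 and -2.58 in the Dox arrays, against 0.17 and -0.14 in the NO Dox arrays, so the type I partner differed more between the groups. For Krt5 over Krt14 it was -0.61, -0.30 and -0.45 in the Dox arrays, against 0.06 and -0.05 in the NO Dox arrays. For Krt1 over Krt10 it was 0.59, 0.11 and 0.48 in the Dox arrays, against -0.08 and 0.05 in the NO Dox arrays. In these 3 pairs all Dox arrays lay on the same side of both NO Dox arrays, with each gene read by its chosen probe set. Another Krt14 probe set overlapped between groups, and quotients with it were not taken. For Krt4 over Krt13 it was -0.0045, -0.08 and 0.25 in the Dox arrays, against -0.11 and 0.10 in the NO Dox arrays, and for Krt8 over Krt18 the arrays overlapped as well.

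**Figure D3:**
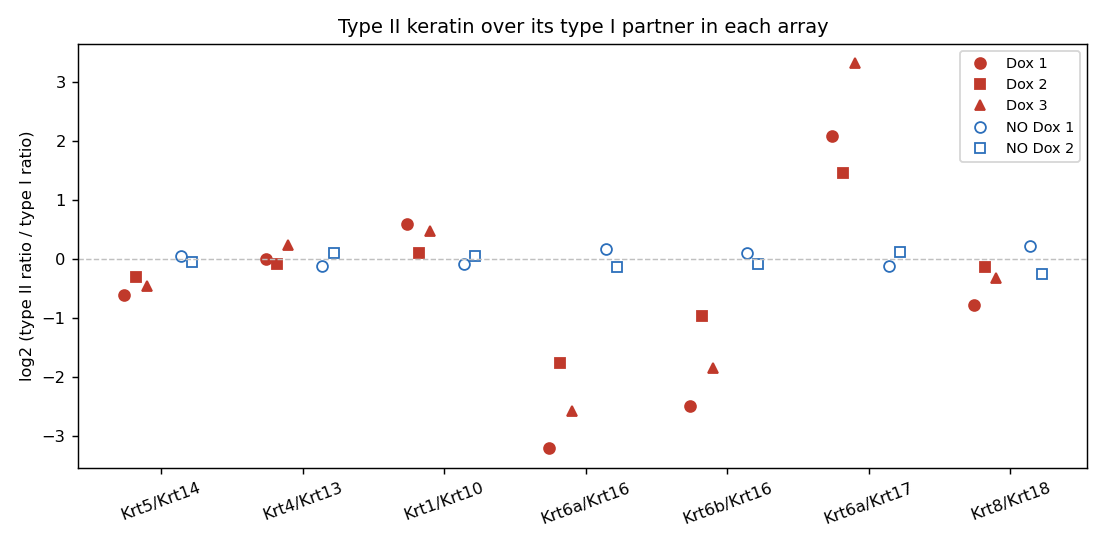
Log2 of the type II ratio over the type I ratio in each array for 7 keratin pairs, with Dox arrays in filled red and NO Dox arrays in open blue to their right. The Krt6a/Krt16 and Krt6b/Krt16 quotients lie below 0 in all 3 Dox arrays and Krt6a/Krt17 above, while Krt4/Krt13 lies near 0 in all 5 arrays.

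Keratin genes lie in 2 clusters, and 24 of the measured genes are on chromosome 11 and 24 on chromosome 15, where Krt18 is the only type I member. In the order of the RefSeq table (GRCm38.p6, keratin genes only) Krt6b and Krt6a are neighbours, and Krt5, which overlapped between groups, is next to Krt6a. Krt76 and Krt79, which fell, flank Krt4, which overlapped between groups. Krt16, which rose, lies between Krt14 and Krt17, of which neither passed. Krt32 is next to Krt35, and both had all Dox arrays below both NO Dox arrays.

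**Figure D4:**
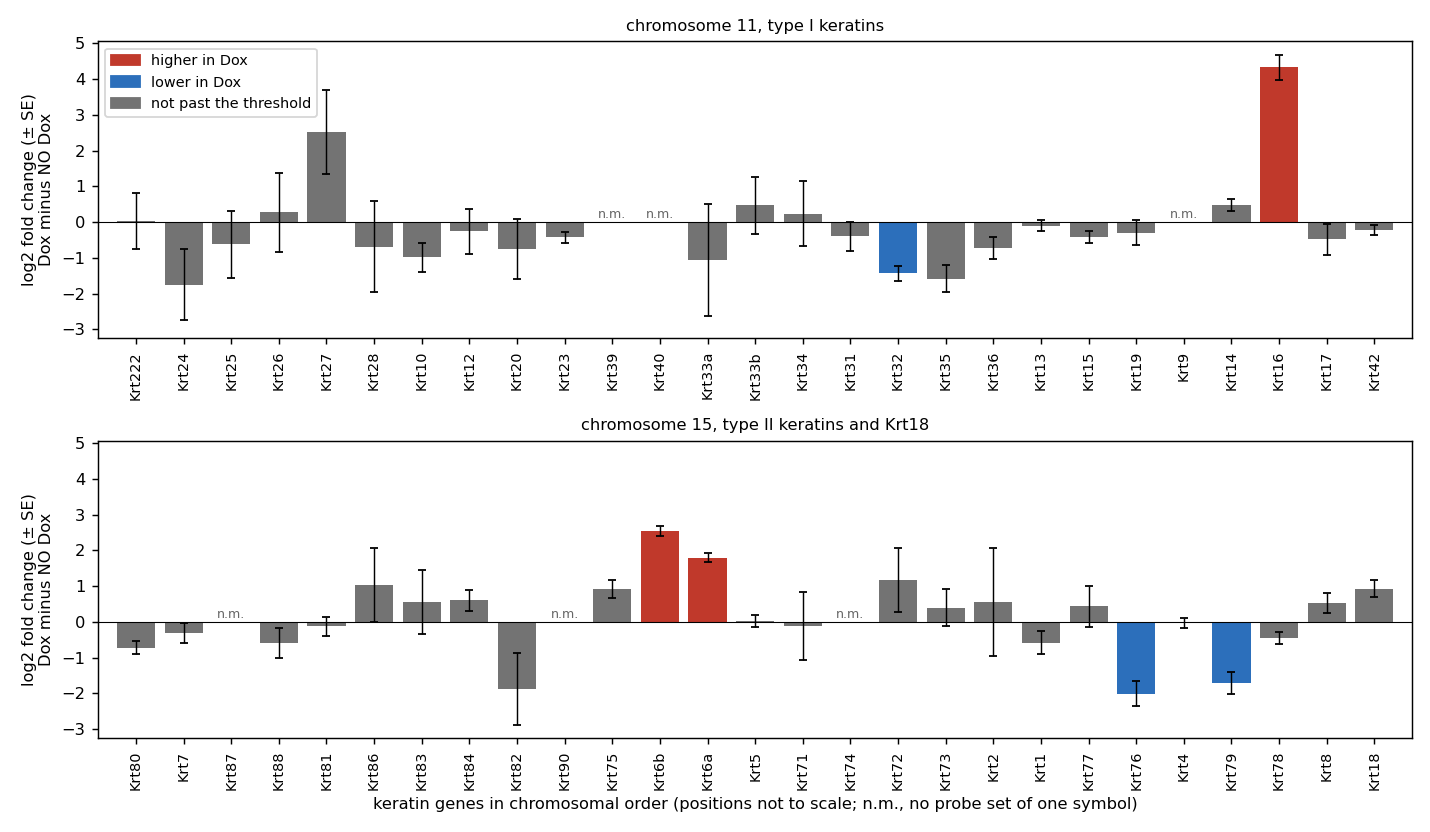
Log2 fold change (Dox minus NO Dox) with its standard error for keratin genes in their order on chromosome 11 (top) and chromosome 15 (bottom), with distances not to scale. The red bars of Krt6b and Krt6a stand beside the flat bar of Krt5, and the blue bars of Krt76 and Krt79 lie on both sides of Krt4.

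In 9 keratin genes several probe sets measured the same gene, 22 probe sets in all, and in 5 of the 9 all had the same sign. The 3 Krt6a probe sets had log2 fold changes of 2.31, 1.80 and 2.43, all past the threshold when all 45037 probe sets were tested. The 3 Krt14 probe sets had 0.48, 0.23 and 0.56, and the 3 Krt8 probe sets 0.53, 0.44 and 1.17, of which none passed. The Krt4 and Krt13 probe sets had values between -0.20 and 0.00. In that test 5 of the 61 keratin probe sets rose and 3 fell, against 0.591% higher and 0.5% lower of all probe sets. The probe set that stands for Krt6a gave the smallest of its 3 values, so the fold of Krt6a depends on the probe set.

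**Figure D5:**
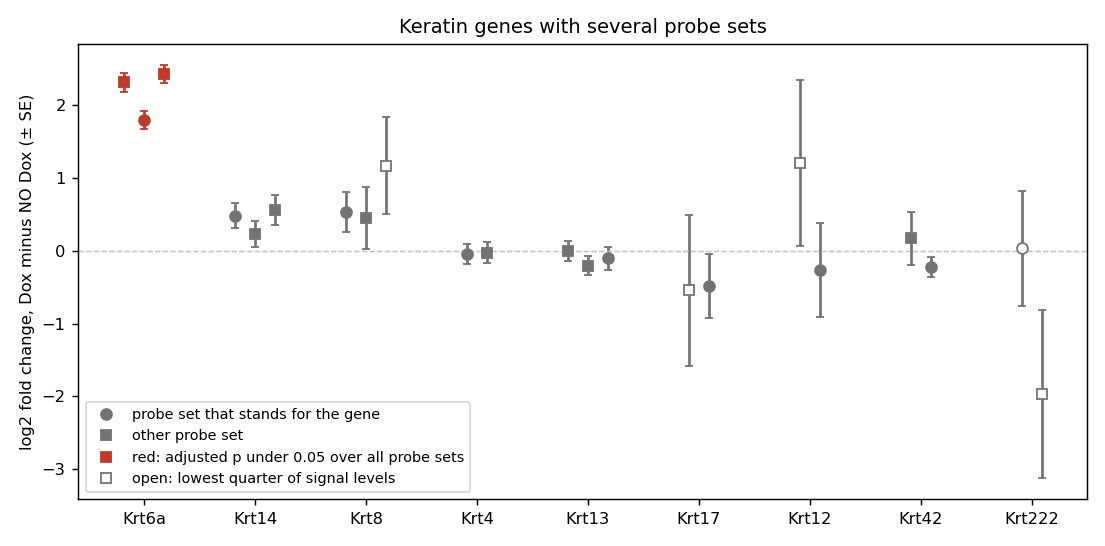
Log2 fold change (Dox minus NO Dox) with its standard error for each probe set of the 9 keratin genes that have several, with circles for the probe set that stands for the gene. All 3 Krt6a probe sets are red, past the threshold, and Krt12, Krt13, Krt42 and Krt222 have values on both sides of 0 or at it.

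The genes that keratin filaments attach to and work with were read from lists written from general knowledge. Of 19 measured genes of desmosomes, hemidesmosomes and plakins, which anchor keratin filaments, 0 rose and 2 fell, with a median log2 fold change of -0.17. Over all genes 1.38% rose and 1.37% fell. In 9 of the 19 all Dox arrays lay below both NO Dox arrays and in 2 above, beside 23.3% and 12.6% of all genes. Ppl, which encodes periplakin, had ratios of 0.498, 0.617 and 0.520 in the Dox arrays, against 0.949 and 1.05 in the NO Dox arrays. All Dox arrays were lower, by 0.88 on the log2 scale (adjusted p = 0.0162, limma). Dsg1a, which encodes a desmosomal cadherin of upper layers, had ratios of 0.642, 0.617 and 0.543 in the Dox arrays, against 1.03 and 0.971 in the NO Dox arrays. It fell by 0.74 on the log2 scale (adjusted p = 0.0259, limma), while Dsp, which encodes desmoplakin, had a log2 fold change of 0.02.

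Of 14 measured genes of filament bundling, the cornified envelope and keratinocyte differentiation, 0 rose and 2 fell, with a median log2 fold change of -0.31. In 5 of the 14 all Dox arrays lay below both NO Dox arrays and in 0 above, beside 23.3% and 12.6% of all genes. Hrnr, which encodes hornerin, a filaggrin-like protein of cornified cells, had ratios of 0.247, 0.386 and 0.301 in the Dox arrays, against 1.0003 and 0.9997 in the NO Dox arrays. The Dox arrays were all far lower, by 1.71 on the log2 scale (adjusted p = 0.00238, limma). Tgm3, which encodes a transglutaminase that crosslinks envelope proteins, had ratios of 0.350, 0.530 and 0.264 in the Dox arrays, against 1.04 and 0.962 in the NO Dox arrays. It fell by 1.45 on the log2 scale (adjusted p = 0.0192, limma). Lor, which encodes the envelope protein loricrin, had a log2 fold change of -0.07, and Ivl, which encodes involucrin, -0.12. Without Dox 3, 0 of the 19 anchoring genes and 1 of these 14 genes fell past the threshold. Without NO Dox 1 or without NO Dox 2, no gene of either list fell past the threshold.

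Of 27 regulators of keratin transcription, 0 rose and 0 fell, with a median log2 fold change of -0.02. Of 16 genes of other intermediate filaments, such as vimentin, desmin and the lamins, 0 rose and 0 fell, with a median of -0.07. Among the 27 regulators, 8 had all Dox arrays above and 8 all below both NO Dox arrays, beside 12.6% above and 23.3% below over all genes.

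Markers of the cell types in the samples were set beside these values. Of 12 markers of stratified epithelium that are not keratins, 0 rose and 0 fell, with median ratios of 1.02, 1.07 and 0.985 in the Dox arrays, against 1.003 and 0.997 in the NO Dox arrays, and none was in the lowest 25% of signal levels. The 2 of smallest p were Jup and Trp63, with log2 fold changes of 0.45 and -0.34. Of 14 cell cycle genes 2 rose, Cenpa by a log2 fold change of 1.05 and Cdc20 by 0.98. All Dox arrays lay above both NO Dox arrays in 10 of the 14, beside 12.6% of all genes. Bub1, Mcm2, Mcm5 and Pcna overlapped between groups, with log2 fold changes from -0.38 (Mcm2) to 0.10 (Mcm5). With the mean of the probe sets of a gene 0 of the 14 rose, and 1 rose with probe sets of shared sequence avoided. Without NO Dox 1 or without NO Dox 2 none of the 14 rose, and without Dox 3 only 1 did. Of 9 leukocyte markers 5 rose (Cd68, Tyrobp, Itgax, Cd74 and H2-Ab1) and 0 fell, with a median log2 fold change of 1.42 and values of 1.54 for Cd68 and 1.58 for Cd74, and 1 rose without NO Dox 1 and 3 without NO Dox 2. Of 12 skeletal muscle genes 0 rose and 5 fell (Myl2 and Myh7, with log2 fold changes of -5.96 and -4.04, and Myh4, Tnnc1 and Pvalb), with median ratios of 0.675, 0.512 and 0.600 in the Dox arrays, against 0.986 and 1.01 in the NO Dox arrays. All Dox arrays lay below both NO Dox arrays in 8 of the 12. Acta1, Ckm, Myh1 and Tnnc2 overlapped between groups, with log2 fold changes from -0.15 (Ckm) to -0.08 (Acta1). Of 4 thyroid and parathyroid markers 0 rose and 0 fell, with log2 fold changes of -0.27 for Pax8 and 0.18 for Pth. The part of these markers in the keratin values was not tested.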

How the data were processed

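Gene expression was measured in 5 arrays, 3 Dox and 2 NO Dox, as the titles name them. RNA was extracted with Trizol and labelled with random primers, per the labels' protocols. Signals came from MAS 5.0, default settings, and GeneSpring 7.3.1 was used to normalize them pair-wise, per the submitters' processing notes. Each deposited value is a ratio made by the authors. In 45099 of 45101 probe sets the 2 NO Dox values sum to 2 within 0.0001, so the values show a common NO Dox mean, not a control for each array. They carry no depth or detection call, and the number of arrays limits the precision.

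Signal levels were recovered as whole steps up to 50000 that give the 5 ratios within a relative tolerance of 3e-07, with an array constant each. A level was found for 40705 probe sets (90.25%), and for 36 of 4000 with shuffled ratios (0.9%); the others got a lower bound. An earlier search without array constants was replaced before any test was run. The lowest 25% of probe sets had under 1005 steps. The test was limma 3.58.1 under R 4.3.3 on log2 ratios (lmFit, eBayes with a trend on the mean log2 level), two-sided, adjusted over 18193 genes, each read by its probe set of highest NO Dox level. A single symbol was given for 34945 probe sets, several for 932 and none for 9160, beside 64 controls. The fit had 3 residual and 6.17 prior degrees of freedom, and was tested on simulated data. Per-array values were given for keratins past the threshold and for 16 keratins named by role; from the lists, members past the threshold and, for other tissues, the 2 of smallest p were named, with others chosen after their values were seen. The members and lists were chosen with earlier results of these data known. The main test did not pair same-numbered arrays. Alternatives changed the scaling, offset, level filter, probe set, variance model, weights of arrays, pairing or threshold, or left out an array. Tables and plots used Python 3.11.15, numpy 2.4.6, pandas 2.3.3 and matplotlib 3.10.9.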

Additional observations from a re-analysis of the deposited data

How the results depend on the processing

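Krt6a, Krt6b and Krt16 stayed higher with an adjusted p under 0.05 when any 1 array was left out, and under every alternative except a fit without the trend of spread on level (0 keratin genes and 0 keratin probe sets in either direction) and a trend on the mean log2 ratio (also 0 and 0, smallest adjusted p 0.306, with 2349 of all genes at an unadjusted p under 0.05, 6 keratins among them higher and 5 lower). The offsets were added only where a level was found, so they left the values of Krt6a, Krt6b and Krt32 unchanged. Krt6b, Krt16, Krt32, Krt76 and Krt79 have a single probe set of their own symbol. The alternatives on the choice or mean of probe sets could not change their values. Array weights gave 5 keratins higher and 5 lower. The replicate block gave 4 higher and 5 lower, with Krt10, Krt75 and Krt80 added. Same-numbered arrays deviated together only weakly (correlations of 0.024 and 0.046). The 2 NO Dox deviations mirror each other, so these correlations cannot decide whether the numbers pair the arrays. Leaving out 1 array gave 0 to 8 lower keratins (1, Krt32, without Dox 3; 0 without either NO Dox array) and 0 to 5 lower probe sets, and an offset of 1000 steps gave 0 lower probe sets. Krt32, Krt76 and Krt79 passed under all other alternatives over genes. The cause of these losses was not tested. Among keratins that did not pass, the sign of the log2 fold change turned for Krt5 (-0.0265 with array weights, -0.11 to 0.15 leaving out 1 array), Krt4 (0.0398 with median centring, 0.12 with quantile normalization, -0.19 to 0.10 leaving out 1 array), Krt13 (0.0049 with the replicate block, 0.0002 without probe sets of shared sequence, -0.20 to 0.0049 leaving out 1 array), Krt17 (0.0426 with the replicate block, -0.90 to 0.0426 leaving out 1 array) and Krt19 (-0.67 to 0.0205 leaving out 1 array). Over all genes the counts of 251 higher and 250 lower moved to 443 and 568 with array weights, to 350 and 539 with the replicate block, to 53 and 9 without NO Dox 1, 62 and 12 without NO Dox 2, 118 and 60 without Dox 3, and 381 and 556 without Dox 2. The lower count was 133 to 162 with quantile normalization, median centring, the offset of 1000 steps or the mean of probe sets.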
